A study of Rattus norvegicus with 20 samples.

Results

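The genes described are Fzd1, Fzd2, Lgr5 and Ctnnb1. They stand for 2 Wnt receptors, a receptor that strengthens Wnt signals and the pathway's transducer. Members were all probe sets annotated to the 4 symbols. Of 4736 genes measured 3 met this, Fzd1, Fzd2 and Lgr5, with 1 probe set each among the 8740 tested. Ctnnb1 was not analysed here. The members were chosen by their measured intensity in these arrays, since Fzd1 and Lgr5 separate rat progenitors treated with RA/Fsk from those treated with FBS. Their values in treated cells are therefore a description and carry no test, and the same holds for the difference between RA/Fsk and FBS in Fzd2.

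Frizzled proteins are the cell-surface receptors that bind secreted Wnt ligands. In the canonical branch of the pathway their activation spares β-catenin, encoded by Ctnnb1, from destruction, so that it reaches the nucleus and acts with TCF/LEF factors on target genes. Lgr5 is a receptor for R-spondins, secreted proteins that keep frizzled receptors on the surface, and it is itself a widely used stem cell marker and Wnt target. In the nervous system Wnt signals act on progenitor division and on the choice of cell fate.

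Total RNA of cultured rat progenitors and cells derived from them was measured on 20 arrays. Low-density (LD) CCg progenitors were given RA/Fsk to derive neurons in 4 cultures (4 arrays, RA/Fsk) and FBS to derive astrocytes in 4 cultures (6 arrays, FBS). The progenitors themselves were measured at high density (HD) in 3 cultures (6 arrays) and at low density in 3 cultures (4 arrays). Titles give each array a number, and the arrays of 1 group and 1 number, averaged, are called a culture here. FBS usually stands for fetal bovine serum, RA for retinoic acid and Fsk for forskolin, an activator of adenylyl cyclase. The sample labels leave CCg unexplained and do not use it for the HD cells. Nothing in them says that different numbers are separate cultures, and the spread behind the p-values may then be technical. The dose, time, strain, age and tissue of origin were not given in the labels.

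The labelled cell types were checked against marker genes. Among 7 measured astrocyte markers, 4 rose with FBS and 3 with RA/Fsk against LD, and 0 fell with either, while 25.5% of all probe sets passed with FBS and 8.25% with RA/Fsk. S100b, a calcium-binding protein of astrocytes, averaged 2358 in RA/Fsk and 1930 in FBS cultures, against 322 in LD cultures. Of 8 measured neuron markers, 0 rose and 1, the growth-cone protein gene Gap43, fell with RA/Fsk (-0.88 log2, limma adjusted p = 0.0121), and their summed intensity was 1248 to 1554 in RA/Fsk, against 1489 to 1553 in LD cultures. With FBS 1 of the 8 rose, the neurofilament gene Nefm (2.26 log2, adjusted p = 0.00765), at 93.8 in FBS and 17.3 in LD cultures. In RA/Fsk cultures Nefm ran from 10.3 to 150.6 and did not pass against LD. The largest parts of the summed intensity were Map2 and Gap43, at 627 and 535 in LD cultures. Nefl and Syt1 were dim there, at 38.8 and 33.1, as was Nefm. The measured markers do not bear out the neuron label of the RA/Fsk cells, and the groups are called by their treatments. Gfap, Tubb3, Dcx, Rbfox3, Stmn2 and Sox2 were not analysed here. Pearson's r between 2 arrays was 0.951 to 0.975 within a culture, 0.940 to 0.979 between cultures of a group and 0.877 to 0.960 between groups. Arrays of 1 number were thus hardly more alike than those of different numbers in a group, and 0 arrays were identical.

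The promoter of Fzd1 is shown because Fzd1 is 1 of the 2 members that separate the treatments. It was taken from RefSeq (GRCr8, chr4:30264824-30265123, plus strand) and runs from 250 bases before to 50 bases after the annotated start. Capitals mark the single match found among the motifs searched.

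Fzd1 promoter: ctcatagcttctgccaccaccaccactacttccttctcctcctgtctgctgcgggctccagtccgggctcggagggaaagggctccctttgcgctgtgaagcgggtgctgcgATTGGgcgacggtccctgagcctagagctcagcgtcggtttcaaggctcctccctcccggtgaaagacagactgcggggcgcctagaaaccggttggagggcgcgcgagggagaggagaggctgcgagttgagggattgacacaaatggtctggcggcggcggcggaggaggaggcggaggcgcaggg

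Both strands were searched for the CCAAT box (CCAAT), the GC box (GGGCGG), 2 retinoid receptor half-sites (AGGTCA and AGTTCA), the cAMP response half-site and full site (TGACG and TGACGTCA, the first lying within the second), and 2 spellings of the TCF/LEF site (ACAAAG and TCAAAG). The CCAAT box matched once, on the minus strand, with its first base in the window 138 bases before the start. Of 33469 promoters of this length, 37.5% hold a CCAAT box. The other motifs had 0 matches in this window, and they occur in 33.1%, 16.2%, 14.5%, 21.2%, 1.83%, 18.8% and 16.1% of promoters in the order given. The window is 65.3% G and C, against a median of 51.7% over all promoters.

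Fzd1, a frizzled receptor, was lowest in RA/Fsk cells and highest in FBS cells. Its intensity was 71.8, 147, 86.9 and 139.3 on the RA/Fsk arrays. On the 6 FBS arrays it ran from 462.1 over a median of 489 to 666.3. On the 6 HD arrays it ran from 198.5 over a median of 263 to 296.8, and the LD arrays gave 162.9, 201.6, 184.7 and 193.6. Every FBS array lay above every other array, and every RA/Fsk array lay below every other array. Averaged over cultures, Fzd1 was 111 ± 37.5 in RA/Fsk and 519 ± 75.4 in FBS (SD, n = 4 each), 256 ± 32.5 in HD and 187 ± 5.97 in LD (SD, n = 3 each).

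**Figure D1:**
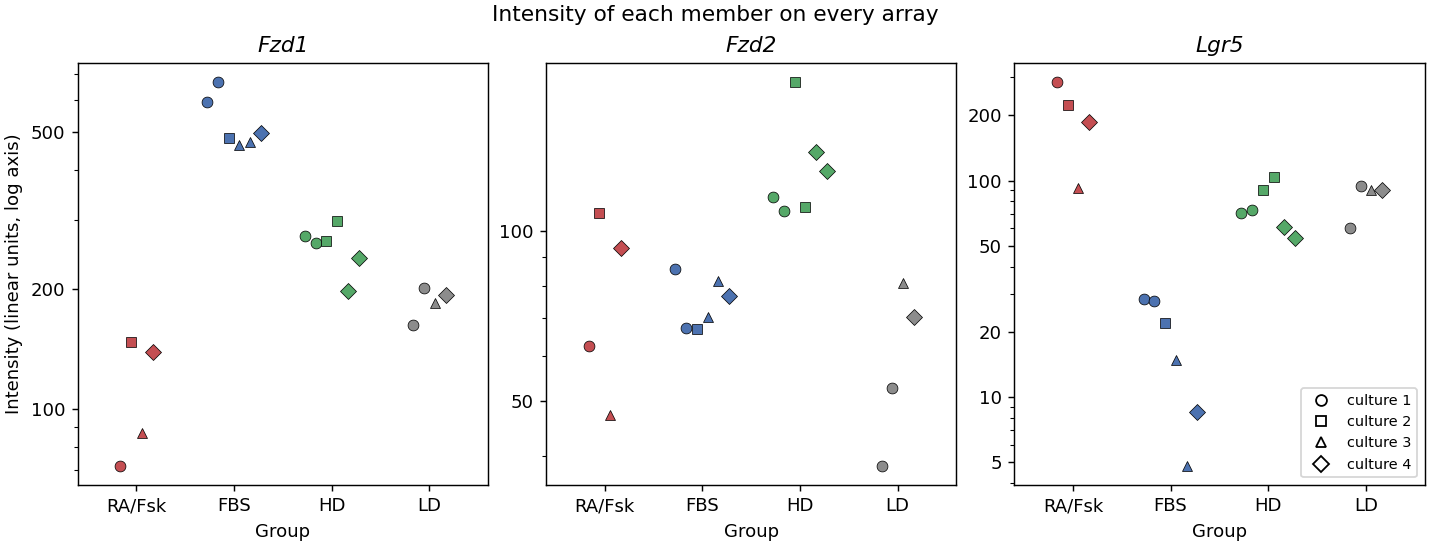
Intensity of Fzd1, Fzd2 and Lgr5 (linear units on a log axis) on each of the 20 arrays, by group, 1 point per array with the marker shape giving the number in the title. Fzd1 is lowest in RA/Fsk and highest in FBS, Lgr5 runs the other way, and Fzd2 is highest in HD.

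On the log2 scale, Fzd1 differed by -2.22 ± 0.20 (SE) between RA/Fsk and FBS, which is 4.66-fold lower in RA/Fsk. It was lower by -0.78 ± 0.21 in RA/Fsk and higher by 1.44 ± 0.21 in FBS, each against LD. Both treatments are set against the same LD cultures, so these differences are not independent. All log2 differences here were computed after adding 4.99 to each intensity, which understates changes of dim probe sets. In each of these 3 comparisons the cultures did not overlap. The same was true of 21.5% of all probe sets between RA/Fsk and FBS, 15.5% between RA/Fsk and LD and 35.4% between FBS and LD. By number, RA/Fsk minus LD was -1.28 in culture 1, -1.05 in culture 3 and -0.46 in culture 4, so the sign held in each while the size differed.

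Lgr5, the R-spondin receptor, ran the other way, highest in RA/Fsk and lowest in FBS. Its intensity was 285, 222.9, 92.4 and 186.5 on the RA/Fsk arrays. On the FBS arrays it ran from 4.8 over a median of 18.4 to 28.4. On the HD arrays it ran from 54.4 over a median of 72 to 104.1, and the LD arrays gave 60.5, 94.5, 90.6 and 90.7. The FBS arrays lay below all others, at or under the 38.9th percentile of probe sets on their array, so in FBS cells Lgr5 was among the dimmer signals. RA/Fsk culture 3, at 92.4, lay just above the LD cultures and below 1 LD array. It also lay below HD culture 2, at 97.3, so RA/Fsk and HD cultures overlapped. Culture means were 197 ± 80.6 in RA/Fsk and 17.1 ± 9.51 in FBS (SD, n = 4 each), 75.6 ± 20.1 in HD and 86.3 ± 7.59 in LD (SD, n = 3 each).

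Lgr5 was higher by 3.21 ± 0.35 log2 (SE), or 9.26-fold, in RA/Fsk than in FBS. This size depends on the pseudocount, because the FBS values are dim, and it was 2.16 with a pseudocount of 32. Against LD it was higher by 1.05 ± 0.37 in RA/Fsk and lower by -2.16 ± 0.37 in FBS, or -1.28 with a pseudocount of 32. By number, RA/Fsk minus LD was 1.85 in culture 1, 0.03 in culture 3 and 1.0 in culture 4. The higher Lgr5 of RA/Fsk cells thus came from cultures other than number 3. The lowest FBS value, 4.8, came from array 3r, whose partner array 3 gave 14.8, a ratio of 3.08 within 1 culture. For Fzd1 the same 2 arrays differed by a ratio of 1.02.

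Fzd2, a second frizzled receptor, did not separate the treatments. It gave 62.4, 107.4, 47.1 and 93.4 on the RA/Fsk arrays and 66.9 to 85.7, with a median of 73.5, on the FBS arrays. The HD arrays ran from 108.6 over a median of 121 to 183.3, and the LD arrays gave 38.4, 52.6, 80.9 and 70.4. In FBS, culture 2 lay at 66.9 and the other cultures within 76.0 to 76.6. All 6 HD arrays were above every array of the other groups, while RA/Fsk, FBS and LD overlapped. The margin was narrow, with the lowest HD array at 108.6 and RA/Fsk culture 2 at 107.4. In HD culture 2 the 2 arrays gave 183.3 and 110.2, a ratio of 1.66. Culture means were 77.6 ± 27.7 in RA/Fsk and 74 ± 4.74 in FBS (SD, n = 4 each), 131 ± 17.6 in HD and 65.6 ± 18.2 in LD (SD, n = 3 each).

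RA/Fsk and FBS differed by 0.00 ± 0.25 log2 in Fzd2, with a 95% interval of -0.52 to 0.53. Against LD, limma gave 0.20 ± 0.27 for RA/Fsk (adjusted p = 0.752, interval -0.36 to 0.76) and 0.20 ± 0.27 for FBS (adjusted p = 0.656, interval -0.37 to 0.76). Neither passed, and the intervals leave room for changes of up to 0.76 log2. Without LD culture 1, the lowest of its group, the differences were -0.028 for RA/Fsk (adjusted p = 0.975) and -0.032 for FBS (adjusted p = 0.957). The adjusted p lay between 0.399 and 0.975 for RA/Fsk, and between 0.305 and 0.957 for FBS, in the alternatives run.

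**Figure D2:**
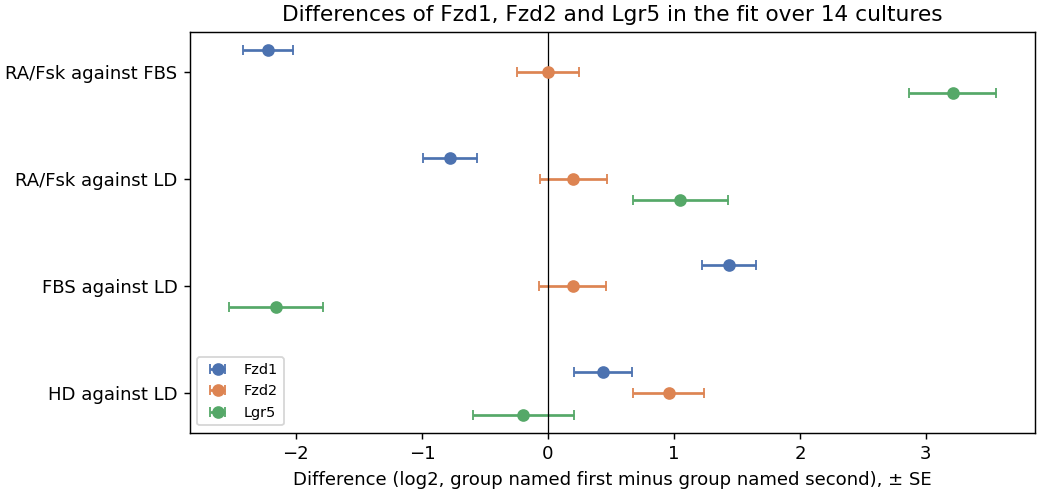
Log2 differences of Fzd1, Fzd2 and Lgr5 (points) with their SE (bars) in 4 comparisons, group named first minus group named second, from the fit over 14 cultures. Fzd1 and Lgr5 have opposite signs in all 4 comparisons, and Fzd2 lies between 0.00 and 0.20 in the 3 that involve a treated group.

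The rule that chose the members names no difference between HD and LD progenitors, so all 3 were tested in this comparison. Earlier results of these data were known at the choice, so its independence from this comparison is not shown. In limma 0 of 3 passed, against 0.858% of all probe sets, and 1, Fzd2, had an unadjusted p under 0.05, as did 13.8% of all probe sets. Fzd2 differed by 0.96 ± 0.28 log2 (SE), or 1.94-fold higher in HD, with an unadjusted p of 0.00387 and an adjusted p of 0.139 in limma. Its cultures did not overlap between HD and LD, as for 19.7% of all probe sets. Fzd1 was higher by 0.43 ± 0.23 in HD (adjusted p = 0.42, 95% interval -0.05 to 0.92), again without overlap of cultures, although the lowest HD array lay below the highest LD array. Lgr5 differed by -0.20 ± 0.40 (adjusted p = 0.87, interval -1.04 to 0.65), and its cultures overlapped. Density and CCg cannot be told apart in this comparison, since the labels name CCg for the LD cells alone.

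Against HD, where Fzd2 was highest, it differed by -0.76 ± 0.27 log2 (SE) both in RA/Fsk and in FBS. These 2 comparisons were chosen after the values were seen and are given as a description, with no test.

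In order of level, Fzd1 ran from FBS over HD and LD to RA/Fsk, with no overlap of cultures between neighbours, as for 32.4% of all probe sets between FBS and HD. The HD and LD step did not pass its test. Lgr5 ran from RA/Fsk over LD and HD to FBS, where LD and HD overlapped and the other neighbours did not. RA/Fsk also overlapped HD, since RA/Fsk culture 3, at 92.4, lay below HD culture 2, at 97.3. For Fzd2, HD stood first, and RA/Fsk, FBS and LD could not be ordered beyond their spread. In bulk RNA, fewer cells of a type and less RNA per cell cannot be told apart.

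Of 9 oligodendrocyte lineage markers 6 were measured, with summed intensities of 2271 to 3693 in RA/Fsk, 1341 to 1749 in FBS, 1656 to 2159 in HD and 1761 to 2399 in LD cultures, and 0 of them at 0. Against LD 2 rose and 4 did not pass with RA/Fsk, and 1 rose and 1 fell with FBS. Of all probe sets 8.25% passed with RA/Fsk and 25.5% with FBS. Mbp and Cnp, which encode myelin proteins, rose with RA/Fsk by 2.45 log2 (adjusted p = 0.00442) and 0.78 (adjusted p = 0.00389) against LD. The precursor marker Pdgfra, a growth factor receptor, fell by 2.51 with FBS (adjusted p = 3.56e-06), while Mbp rose with FBS by 1.46 (adjusted p = 0.0373). Of 8 neural progenitor markers 6 were measured. Fabp7, Hes5 and Notch1 fell with FBS against LD, while Nes, Vim and Pax6 did not pass. Fabp7, a fatty-acid-binding protein of radial glia, differed by -1.79 (adjusted p = 9.36e-05), and Hes5, dim at 26.3 in FBS, passed narrowly (adjusted p = 0.048). The summed intensity of all 6 progenitor markers was 6491 to 6889 in FBS, within the 5189 to 7407 of LD cultures. Its largest parts were Vim and Nes, at 4813 and 1296 in FBS, so it says little of Fabp7 and Hes5. With RA/Fsk 0 of the 6 passed against LD, and the sum was 4234 to 6040. The part of oligodendrocyte lineage and progenitor cells in the values of Fzd1 and Lgr5 was not tested. Of 4 measured Schwann cell markers 1 passed, the neuregulin receptor gene Erbb3, which rose with RA/Fsk (0.81, adjusted p = 0.0231). Microglia, fibroblast and endothelial markers had 0 genes that passed in either treatment against LD. The GAPDH 5′ to 3′ log2 ratio, a sign of RNA quality, was -0.47 to -0.11 in RA/Fsk, -0.16 to -0.01 in FBS, -0.20 to 0.05 in HD and -0.47 to -0.21 in LD cultures, so neither FBS nor HD overlapped LD in it. With this ratio as a covariate, the difference between RA/Fsk and FBS was -2.30 for Fzd1 and 3.56 for Lgr5, and that of HD against LD was 1.22 for Fzd2 (adjusted p = 0.103, with 0.00786 to 0.364 over the alternatives).

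The genes whose pattern over the 14 cultures was most like that of Fzd1 were Msx1, a homeobox factor (r = 0.967), Vcan, the proteoglycan versican (0.954), Adgrl2, an adhesion receptor of the latrophilin family (0.948), Dync1i2, a dynein chain (0.937), and Masp1, a complement protease (0.936). Msx1 averaged 48.9 in RA/Fsk, 154 in FBS, 78.4 in HD and 66.6 in LD. All 5 had the order of Fzd1, with FBS highest and RA/Fsk lowest, which follows largely from their choice by correlation. The genes most like Lgr5 were Bin1, a protein that bends membranes (r = 0.959), Polr1d, a subunit of RNA polymerases I and III (0.957), Apod, apolipoprotein D (0.954), Atp9a, a member of the lipid flippase family (0.933), and Ugt8, the enzyme that makes the galactolipids of myelin (0.929). Apod averaged 873 in RA/Fsk, 155 in FBS, 540 in HD and 702 in LD, and Ugt8 267 in RA/Fsk, 66.8 in FBS, 161 in HD and 171 in LD. These correlations were taken over 4093 single-symbol probe sets whose brightest group mean reached the median of all values, so a gene could enter through 1 bright group. They rest mainly on the differences between groups, which all values share.

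**Figure D3:**
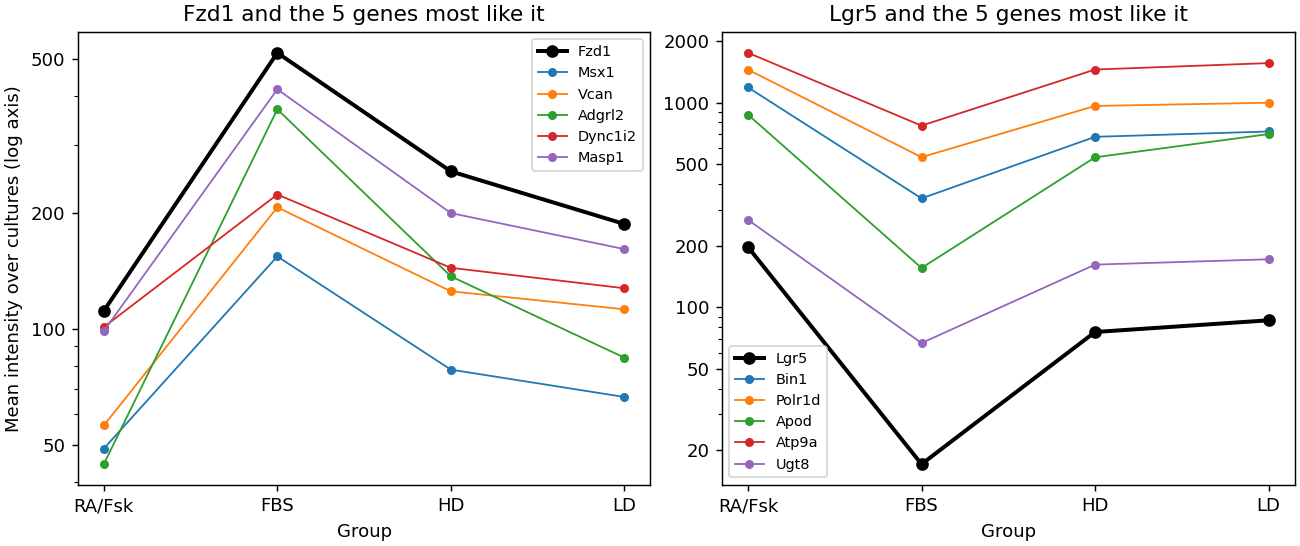
Mean intensity over cultures (log axis) in each group for Fzd1 (left, black) and Lgr5 (right, black) with the 5 genes of highest Pearson correlation to each over 14 cultures. In the left panel FBS is highest and RA/Fsk lowest for all 6 genes, and in the right panel RA/Fsk is highest and FBS lowest for all 6. The shared order follows largely from the choice by correlation.

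To place the members in their pathway, 131 further Wnt pathway genes were listed by role, with earlier results of these data known, and 40 of them were measured. With FBS 9 rose and 3 fell against LD (30%, against 25.5% of all probe sets), with a median difference of 0.16 log2, against -0.09 over all. With quantile normalization the split was 7 up and 6 down, and with array medians set equal 7 up and 4 down. Adding the GAPDH ratio as a covariate left 6 pathway genes that rose and 2 that fell. Of the 8740 probe sets 1928 then passed, against 2225 in the main fit, where 1153 rose and 1072 fell. With RA/Fsk 2 rose and 3 fell against LD (12.5%, against 8.25% of all), with a median of -0.03, against -0.05 over all. This count of 5 became 2 without LD culture 3 and 3 without RA/Fsk culture 2 or 4, and both scalings gave 1 up and 3 down. Between RA/Fsk and FBS 1 was higher and 11 were lower (30%, against 18.4% of all), with a median of -0.12, against 0.06 over all. Of all probe sets 723 were higher and 883 lower in that comparison. Adding the GAPDH ratio as a covariate left 0 pathway genes higher and 9 lower there, while 1239 probe sets passed, against 1606 in the main fit. In HD 0 passed against LD in limma, where 0.858% of all probe sets passed. At an unadjusted p under 0.05 there were 11 of the 40, against 13.8% of all probe sets. Without the dimmer 50% of probe sets, 9 pathway genes rose and 3 fell with FBS against LD. With RA/Fsk 2 rose and 2 fell against LD, and between RA/Fsk and FBS 2 were higher and 8 lower. Pathway genes are given by their brightest probe sets, while the shares of all probe sets include dim ones. No excess of pathway genes is therefore read from these shares.

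Among ligands, receptors and inhibitors few genes were measured. Of 26 ligand and secretion genes 0 were, and of 18 further receptors 2 were, Lgr4 and Ryk. Lgr4, the close relative of Lgr5 that binds the same ligands, was lower in RA/Fsk than in FBS (-1.27 ± 0.29 log2, SE, limma adjusted p = 0.00491), with 13.9 to 27.8 in RA/Fsk and 52.4 to 80.5 in FBS cultures. This is the sign of Fzd1 and the opposite of Lgr5 in the same comparison. Against LD, Lgr4 differed by -0.56 (adjusted p = 0.34) with RA/Fsk and 0.71 (adjusted p = 0.12) with FBS, neither of which passed. Ryk, a kinase-like Wnt receptor, rose with FBS by 0.44 ± 0.16 (adjusted p = 0.0471), a call that ended in 14 of 25 alternatives (0.0107 to 0.195), among them the omission of LD culture 1 or 4, of any FBS culture, of HD culture 1 or of RA/Fsk culture 4. Sfrp4, a secreted Wnt inhibitor and the only 1 of 15 inhibitors measured, fell by 1.86 ± 0.41 with RA/Fsk (adjusted p = 0.00905), with 4.5 to 28.2 in RA/Fsk and 37.1 to 71.5 in LD cultures. That call ended narrowly without LD culture 4 (0.0506, with 0.00108 to 0.0506 over the alternatives). In RA/Fsk cells Lgr4 and Sfrp4 lay below the median of all intensities, 49.6.

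Of the intracellular transducers 15 of 35 were measured, of which 14 did not pass with RA/Fsk and 13 did not pass with FBS, each against LD. The shares that passed were 6.67% with RA/Fsk, against 8.25% of all probe sets, and 13.3% with FBS, against 25.5%. Apc, Axin1, Gsk3a and Gsk3b, which belong to the complex that destroys β-catenin and are named after their values were seen, did not pass in HD, FBS or RA/Fsk against LD, or between RA/Fsk and FBS. Ruvbl1, an ATPase that binds β-catenin, fell by 1.0 ± 0.15 log2 with RA/Fsk (adjusted p = 4e-04) and fell by 1.12 ± 0.15 with FBS (adjusted p = 2.61e-05), with 179 to 246 in RA/Fsk and 172 to 204 in FBS, against 385 to 465 in LD cultures. Its second probe set also fell with FBS (-1.25, adjusted p = 0.0386) but differed by -0.26 with RA/Fsk (adjusted p = 0.807), so the RA/Fsk call rests on 1 of 2 probe sets. Csnk1a1, the casein kinase that primes β-catenin for destruction, rose with FBS by 0.56 ± 0.17 (adjusted p = 0.0229). Its other probe set differed by -0.41 (adjusted p = 0.408), so the gene is uncertain. It was also lower in RA/Fsk than in FBS (-0.52, adjusted p = 0.0288), a call that ended in 9 of 25 alternatives (0.00283 to 0.147). The FBS call ended without LD culture 1 or 3, without FBS culture 2 or 4 and with FBS array 3r alone (0.00568 to 0.139 over the alternatives). It also ended with quantile normalization (0.0626), array medians set equal (0.0719), no intensity trend (0.0502) and the GAPDH covariate (0.139).

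Of the genes often listed as Wnt targets 14 of 22 were measured. Axin2, a feedback inhibitor often used as a readout of the pathway and named after its values were seen, differed by 1.12 ± 0.52 with RA/Fsk (adjusted p = 0.226) and 0.22 ± 0.52 with FBS (adjusted p = 0.81) against LD, at 17 to 56.3 in RA/Fsk, 6.4 to 31.2 in FBS and 8.1 to 35.9 in LD cultures. Cd44, a hyaluronan receptor, rose most with FBS, by 4.57 ± 0.21 (adjusted p = 2.29e-10), with 686 to 902 in FBS and 27.6 to 34.2 in LD cultures. A second of its 4 probe sets also rose, and the 2 dimmest did not pass. Nrcam, an adhesion protein, rose with RA/Fsk by 1.09 ± 0.30 (adjusted p = 0.0315) and with FBS by 3.02 ± 0.30 (adjusted p = 1.12e-06), both against LD. Its RA/Fsk call ended without LD culture 3 (0.161) or 4 (0.125) or RA/Fsk culture 2 (0.0619) or 4 (0.0539), with 0.000639 to 0.161 over the alternatives. Jun, a transcription factor of the AP-1 family, rose with FBS by 1.07 ± 0.22 (adjusted p = 0.00136), and Plaur, the urokinase receptor, by 1.66 ± 0.37 (adjusted p = 0.00252). Id2, an inhibitor of helix-loop-helix factors, fell by 0.99 ± 0.24 with RA/Fsk (adjusted p = 0.0145), a call that ended without LD culture 3 (0.0718, with 0.00584 to 0.0718 over the alternatives). Named after their values were seen, Myc, a transcription factor of growing cells, fell by 0.93 ± 0.25 with FBS (adjusted p = 0.00982), and Ccnd1, which encodes cyclin D1, fell by 0.79 ± 0.19 with FBS (adjusted p = 0.0051), while its 4 other probe sets did not pass. That call of Ccnd1 ended with the GAPDH covariate (0.1) and with FBS array 3r alone (0.051), and its adjusted p was 0.00221 to 0.1 in all alternatives run. Between RA/Fsk and FBS, Cd44 differed by -4.39 (adjusted p = 2.35e-10), Nrcam by -1.93 (adjusted p = 7.92e-05), Jun by -1.62 (adjusted p = 2.36e-05), Id2 by -1.62 (adjusted p = 5.33e-05) and Plaur by -1.38 (adjusted p = 0.00795), all lower in RA/Fsk. The call of Plaur ended with the GAPDH ratio, described above, as a covariate (-0.85, adjusted p = 0.166, with 0.00318 to 0.166 over the alternatives), as did its FBS call (1.05, adjusted p = 0.101, with 0.000876 to 0.101). Of the measured targets 1, Ccnd1, passed in the other direction (0.54, adjusted p = 0.0455), a call that ended in 15 of 25 alternatives (0.0164 to 0.286). Of the 14 measured targets 4 rose, 2 fell and 8 did not pass with FBS, and 1 rose, 1 fell and 12 did not pass with RA/Fsk, each against LD. Those shares were 42.9% with FBS, against 25.5% of all probe sets, and 14.3% with RA/Fsk, against 8.25%. The targets are given by their brightest probe sets, and a larger share of the brighter probe sets passed. The counts without the dimmer 50% of probe sets are given above with the whole pathway list. No excess of targets is therefore read from these shares. Both RA/Fsk calls, Nrcam and Id2, ended without LD culture 3.

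β-catenin also links cadherins to the cytoskeleton, and 8 of 15 junction partners were measured. With FBS 3 rose against LD (37.5%, against 25.5% of all probe sets), and with RA/Fsk 1 rose (12.5%, against 8.25%). Between RA/Fsk and FBS 3 were lower (37.5%, against 18.4%). These genes too are given by their brightest probe sets, so no excess is read from the shares. Named after their values were seen, Cask, Cdh4, Ptpn1 and Ptprf passed in none of these comparisons. Cdh2, N-cadherin, rose with FBS by 2.10 ± 0.35 log2 (adjusted p = 0.000229), with 531 to 647 in FBS and 67.8 to 208 in LD cultures, and its second probe set rose as well. Jup, the β-catenin relative plakoglobin, rose with RA/Fsk by 0.66 ± 0.19 (adjusted p = 0.0348) and with FBS by 1.09 ± 0.19 (adjusted p = 0.000253). The RA/Fsk call of Jup ended without LD culture 1 (0.142) or 3 (0.119), without FBS culture 3 (0.0516), and without RA/Fsk culture 2 (0.0973) or 4 (0.08), with 0.0131 to 0.142 over the alternatives. It also ended with quantile normalization (0.0683), with array medians set equal (0.0757) and with no intensity trend (0.0633). Ptprm, a receptor phosphatase of cell contacts, rose with FBS by 2.16 ± 0.31 (adjusted p = 5.17e-05), with 32.2 to 44.3 in FBS and a dim 1.3 to 13.2 in LD cultures. Cdh2, Ptprm and Ctnnd2, the neural catenin δ-catenin, were also lower in RA/Fsk than in FBS, at -2.0 ± 0.33 (adjusted p = 0.000297), -2.08 ± 0.29 (adjusted p = 6.42e-05) and -1.83 ± 0.40 (adjusted p = 0.00353) in that order. For Ctnnd2 the FBS cultures held 1 low value, 61.8, against 102 to 117 in the other 3.

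**Figure D4:**
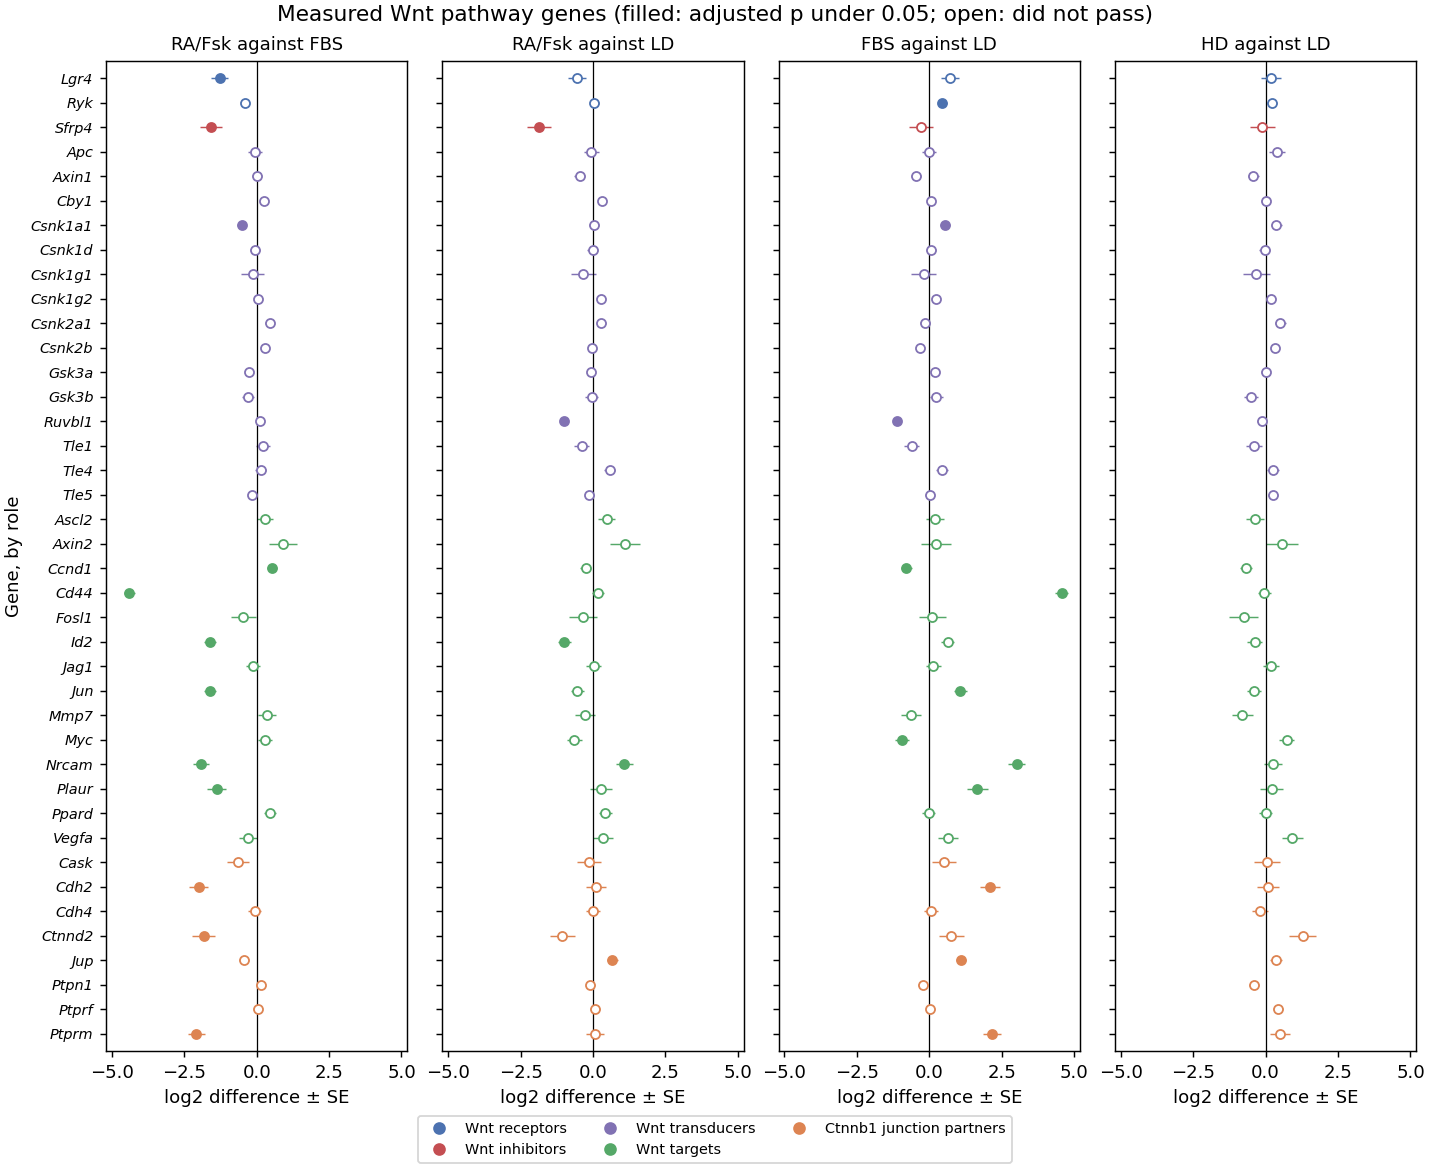
Log2 difference with SE (bars) of the 40 measured Wnt pathway genes, coloured by role, in 4 comparisons; filled points passed at an adjusted p under 0.05 and open points did not. Between RA/Fsk and FBS 11 of the 12 filled points lie left of 0, and in HD against LD no point is filled.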

How the data were processed

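The authors deposited a linear intensity per probe set and array, for 8799 probe sets on 20 arrays. How these were corrected, summarised and scaled was not given in the sources used here. Arrays look scaled alike, since the mean without the outer 2% at each end is 200.3 to 200.5 on each. Medians run from 41 to 57.5. Detection calls were not used here, and precision is limited by how many arrays there are.

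Before testing, the 59 control probe sets were left out. Intensities were taken as log2(intensity + 4.99), 10% of the median positive value, and arrays of a group with the same number were averaged, giving 14 values. All 4 groups were fitted with limma 3.58.1 in R 4.3.3 (lmFit, eBayes with an intensity trend, 10 residual degrees of freedom), with Benjamini-Hochberg adjustment over 8740 probe sets and a threshold of 0.05. The code was tested on simulated data. Symbols came from GEO's platform annotation, where 7006 probe sets have 1 symbol, 308 several and 1426 none, and 0 symbols changed through the RefSeq table of GRCr8. Each pathway gene and marker was taken by its brightest probe set, while shares of all probe sets include dim ones. Text names the members, up to 4 passing genes per list and comparison by smallest adjusted p, and the 5 genes most like Fzd1 and Lgr5. Members and lists were chosen with earlier results of these data known. Promoters of 2 of the 4 members were in the RefSeq table.

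Same-numbered cultures were checked by correlating deviations from group means. Between RA/Fsk and LD all 3 pairs were over 0.1 (0.11 to 0.33), so these numbers were taken to pair the samples. In the other pairs of groups at least 1 pair was lower or there were fewer than 3. The alternatives were other pseudocounts, a filter on dim probe sets, other scalings, no trend, single arrays, the number as a block, the GAPDH ratio as a covariate, and each culture left out. The main fit did not use the pairing of RA/Fsk with LD, so its results for that comparison are unpaired. The block was entered for all 4 groups and is not a paired test of RA/Fsk against LD alone. With it 5 pathway genes passed for RA/Fsk against LD, as in the main fit.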

Additional observations from a re-analysis of the deposited data

Results flagged for a closer look

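Within groups of 4 cultures, 2 of 34 groups examined held a culture far from the other 3, judged by its gap to the nearest of them over the whole range of log2 values. Chance gives about 1 in 20 such groups. For Fzd2 in FBS this share was 0.918, with culture 2 at 66.9 and the others at 76.0 to 76.6. For Ctnnd2 in FBS it was 0.936, with culture 1 at 61.8 and the others at 102 to 117.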

How the results depend on the processing

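Each result was recomputed under 25 alternatives, 14 of which leave out 1 culture. Fzd1 and Lgr5 kept their signs in every comparison and alternative run. A pseudocount of 32 brought Lgr5 to 2.16 between RA/Fsk and FBS and to -1.28 between FBS and LD, since it compresses dim values. Taking each array as its own sample gave 465 called probe sets and 2 pathway genes for HD against LD and let Fzd2 pass there (1.07, adjusted p = 0.00786, with 0.00786 to 0.364 over the alternatives), with arrays of 1 culture counted as separate samples. With FBS array 3r alone the count for HD against LD was 48. Leaving out single cultures gave 23 (without HD culture 4) to 110 called probe sets for HD against LD, where 41, 45 and 33 were called without HD culture 2, LD culture 1 and LD culture 3. It gave 2 to 6 pathway genes for RA/Fsk against LD, and Fzd2 differences of -0.028 to 0.40 for RA/Fsk and -0.032 to 0.36 for FBS against LD. With the number as a replicate block, Fzd2 differed by 0.86 for HD against LD (adjusted p = 0.199), 756 probe sets passed for RA/Fsk against LD, where the pairing applies, and no call of a member changed. With array medians set equal the median over all probe sets was 0.02 instead of -0.08 for HD against LD, -0.18 instead of -0.09 for FBS against LD and 0.16 instead of 0.06 between RA/Fsk and FBS, where 852 were then higher and 688 lower, against 723 and 883. The causes were not tested. Dim signal limits Lgr5 in FBS, Sfrp4, Lgr4, Axin2 and Ptprm.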
